A study of Mus musculus with 18 samples.

Results

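The genes described here are 36 genes of the NRF2 antioxidant response and of glutathione metabolism, taken by symbol from a fixed list of 36 names. All 36 symbols were among the 39179 genes of the count tables, and 34 of them were among the 15006 genes with enough counts to be tested. They were measured by RNA sequencing of MC38 cells, a mouse colon adenocarcinoma line from C57BL6 mice, in 18 libraries that form 6 groups of 3. The groups were an APC-intact line and an isogenic line in which Apc, a tumour suppressor gene, had been deleted, each without doxycycline, after 24 h and after 48 h of 1 µM doxycycline. Doxycycline switches on a hairpin RNA against Tdo2, which encodes a dioxygenase of tryptophan breakdown, and the series asked what its knockdown does in cells with and without APC. The titles name the hairpin in the treated libraries only, whereas the protocol speaks of hairpin cells with and without doxycycline. No treated group lacks the hairpin, so effects of the hairpin and of doxycycline cannot be told apart. Whether the APC-deleted line is 1 clone or a pool is not given in the labels. The libraries of a group are called biological triplicates, and nothing says that they came from separate cultures. The p-values therefore measure spread among these libraries, which may be technical.

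NRF2, the product of Nfe2l2, is a transcription factor that switches on enzymes which neutralise electrophiles and peroxides. KEAP1 binds NRF2 in unstressed cells and hands it to an E3 ubiquitin ligase for destruction, and reactive chemicals that modify KEAP1 let NRF2 build up. With small MAF partners NRF2 binds antioxidant response elements in the genes for glutathione synthesis, for quinone and haem breakdown, for the thioredoxin system and for the supply of NADPH. Because the control is largely at the level of the protein, the mRNA of Nfe2l2 is not a measure of NRF2 activity.

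Levels are gene counts scaled to a common library size (CPM) with edgeR's TMM scaling. A change is a log2 fold change ± SE from edgeR's quasi-likelihood test with Benjamini-Hochberg adjustment over 15006 genes, and "rose", "fell", "higher" and "lower" are used of a comparison where the adjusted p was under 0.05. The libraries held 71970499 to 111948430 gene counts. Tdo2 itself had 6 to 29 counts in every library, too few to check the knockdown, and its change at 48 h was 0.16 ± 0.45 in APC-intact cells (adjusted p = 0.856) and -0.61 ± 0.52 in APC-deleted cells (adjusted p = 0.494). Without doxycycline, Apc was lower in APC-deleted cells (-0.57 ± 0.12, adjusted p = 0.00241), where 6512 to 7654 of its counts per library remained. A pair of libraries stood apart in a principal component analysis, replicate 1 of APC-intact cells at 24 h (35.1 on component 4) and replicate 2 of APC-deleted cells at 48 h (-34.7 on component 3), and counts that use them are also given without them. Between replicates of APC-intact 24 h, the chi-square of counts per degree of freedom was 46.6 (1 and 2), 71.2 (2 and 3) and 26.99 (1 and 3). By that measure replicate 2, at -22.5 on component 3, differed most in its group. A run designation in the names of the deposited files, read here as 2 runs of 9 libraries, places both untreated groups and APC-intact 24 h in 1 run and the other 3 groups in the other. The comparison of untreated lines, that of lines at 48 h, APC-intact 24 h against none and APC-deleted 48 h against 24 h are therefore within 1 run, and the other comparisons with untreated cells and the lines at 24 h cross the runs, where run and treatment or line cannot be told apart.

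Markers of colon epithelium and of other cell types were checked first. Of 12 markers of colon epithelium 8 had a median under 1 CPM over the 18 libraries, Cdx2 was at 0 in all of them and Epcam in 16. The 4 above were Cdh17, Krt8, Lgals4 and Cdh1, at medians of 3.72, 2.15, 1.52 and 1.17 CPM. Of 11 blood cell markers 10 had a median under 1 CPM, Emr1 was at 0 in all libraries, and Cd68 alone was above, at a median of 15.4 CPM. Of 6 endothelial markers 5 had a median under 1 CPM. Of 9 fibroblast markers 6 reached 1 CPM or more, led by Col1a1 at a median of 864 CPM. Of the others, Thy1 was at 0 in 17 libraries, and Fap and Lum had medians of 0.221 and 0.235 CPM. Summed over the list, the fibroblast markers ran from 3528 to 3722 CPM in untreated APC-intact cells, from 4210 to 4667 in untreated APC-deleted cells, and from 2728 to 2957 and 3426 to 3597 in the treated groups of the APC-intact and APC-deleted lines. Of the 8 tested, 5 were higher in the untreated APC-deleted line and 4 to 6 were lower in each comparison of doxycycline with none. The colon epithelium list summed to 7.34 to 8.09 CPM in untreated APC-intact and 11.99 to 12.3 CPM in untreated APC-deleted cells. Many of the genes below moved the same way, and the part of these markers in their differences was not tested.

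The promoter windows show where the element that NRF2 reads lies in some of these genes. The core of the antioxidant response element, TGACNNNGC, was searched on both strands of RefSeq windows of GRCm38.p6 that reach from 250 bases before to 50 bases after each start site. A window was at hand for 31 of the 36 genes and for 27025 genes in all. Abcc1, Gclc, Gsr, Gsta4 and Hmox1 had none. The core was found in 11 of the 31 genes (35.5%), against 13.99% of all genes, and in 8 (25.8%) against 11.5% when only the 250 bases before the start were searched. The following 29-base stretches, 5′ to 3′ on the strand of the gene, hold the core (capitals) before a RefSeq start site of 6 of those 8 genes. They are shown so that the shared letters and the freedom of the middle bases can be seen.
Gclm, chr3:122245413-122245441, plus strand: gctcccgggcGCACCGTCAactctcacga
Txnrd1, chr10:82859104-82859132, plus strand: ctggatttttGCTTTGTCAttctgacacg
Mgst1, chr6:138140461-138140489, plus strand: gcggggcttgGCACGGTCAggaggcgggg
Prdx1, chr4:116685456-116685484, plus strand: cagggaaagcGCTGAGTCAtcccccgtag
Nfe2l2, chr2:75704885-75704913, minus strand: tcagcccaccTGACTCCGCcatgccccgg
Abcc4, chr14:118676936-118676964, minus strand: aataatctcgTGACTCTGCcgtggtggat
In Gclm, Txnrd1, Mgst1 and Prdx1 the core lies on the strand opposite to the gene, so that it reads as GC, 3 free bases and GTCA. Abcc4 has a match at each of 2 listed start sites, of which 1 is shown. By the gene coordinates that came with the counts, the stretches shown for Mgst1 and Abcc4 lie inside the gene. The G6pdx match does too. In Prdx1 the core also contains the AP-1 site TGACTCA, read on the opposite strand. The core was also found before the start of G6pdx and Ugdh, and across or after the start of Srxn1, Pgd and Me1. Nqo1, Gstm1 and Osgin1 had a window without the core. The match is a description of letters, and no binding was measured.

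The expressed genes spanned a wide range. Per kilobase of exon, the median level over the 18 libraries was highest for the ferritin chains Fth1 (3286 CPM per kb) and Ftl1 (824), which store iron, then for the autophagy receptor Sqstm1 (401), thioredoxin Txn1 (378), the lipid peroxidase Gpx4 (236) and the peroxiredoxin Prdx1 (226). Nfe2l2 (59.3 CPM per kb) ranked 14 and Keap1 (10.3) ranked 28. At the low end were the epoxide hydrolase Ephx1 (0.277 CPM per kb, 27 to 89 counts per library) and the microsomal transferase Mgst1 (0.215, 20 to 86 counts). The glutathione peroxidase Gpx2, usually found in gut epithelium, had no count in any library, which allows up to 3 counts in each, and the transferase Gstp1 had at most 2. Neither was tested.

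**Figure D1:**
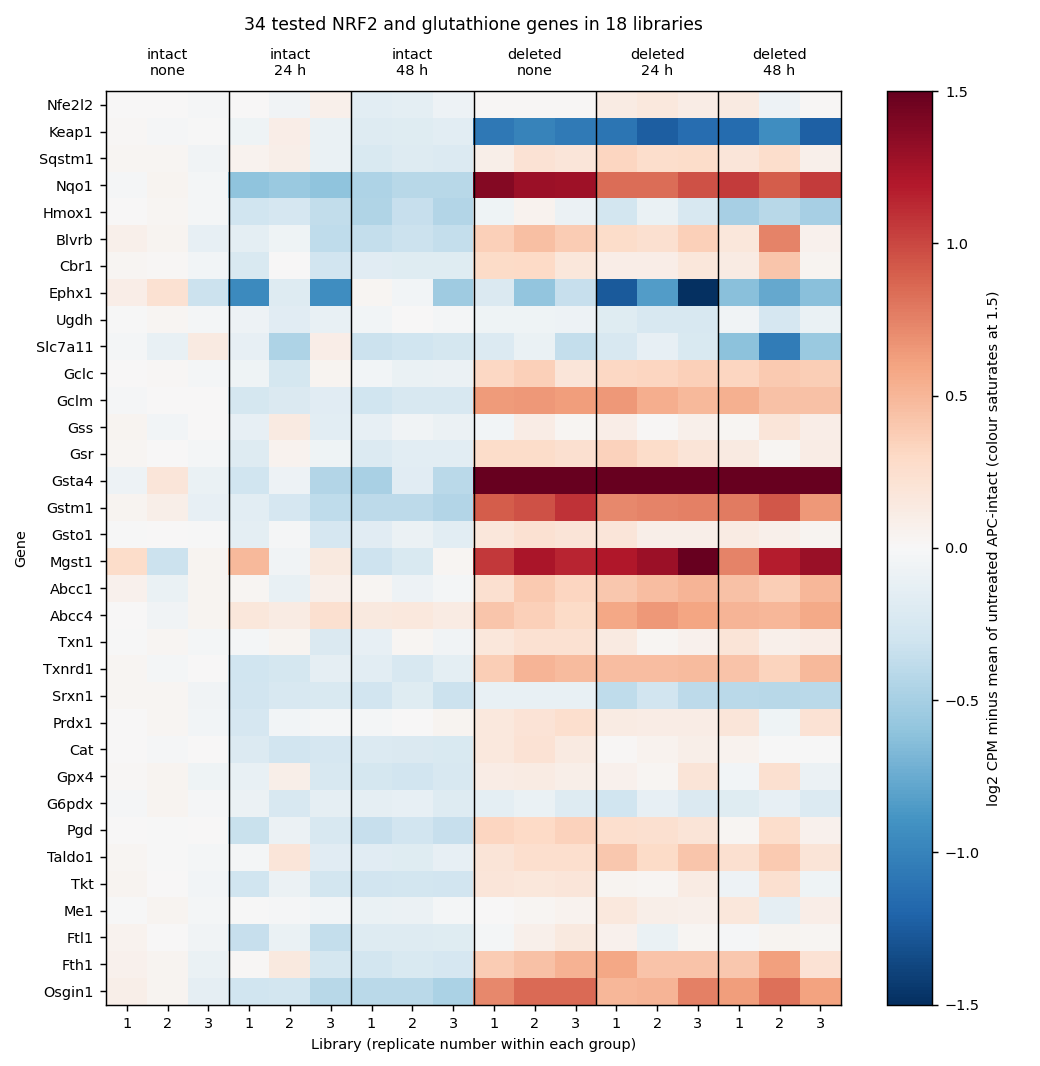
Level of the 34 tested genes (rows) in the 18 libraries (columns, by group and replicate), as log2 CPM minus the mean of the 3 untreated APC-intact libraries. Most rows are red in the 9 APC-deleted libraries and pale blue in treated APC-intact cells, with Keap1 blue in every APC-deleted library.

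Without doxycycline, most of the 34 tested genes stood above their APC-intact level in APC-deleted cells, while the gene for the NRF2 inhibitor KEAP1 was lower. Of the 34, 21 were higher, against 13.4% of all tested genes, and 2 were lower, against 13.8%. The median change of the 34 was 0.21 and that of all genes -0.00444. Of the glutathione transferases and exporters 6 of 6 tested genes were higher, with a median of 0.67. Of the other roles, 3 of 5 genes of glutathione supply were higher (median 0.26), 4 of 6 thioredoxin and peroxide genes (0.19), 3 of 6 quinone, haem and carbonyl enzymes (0.11), 2 of 5 genes of NADPH supply with 1 lower (0.18), 1 of 2 ferritin chains (0.26) and 1 of 3 regulators with 1 lower (0.02).

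Among the regulators, Nfe2l2 was level between the lines. It stood at 224, 224 and 220.4 CPM in untreated APC-intact libraries and at 225, 226 and 225 CPM in untreated APC-deleted ones. The groups did not overlap, but by so little that the change was 0.02 ± 0.05 (adjusted p = 0.846, 95% interval from -0.09 to 0.12). Keap1 (ENSMUSG00000003308) stood at 66.9, 65.4 and 66.0 CPM in APC-intact and at 31.5, 33.0 and 31.8 CPM in APC-deleted libraries. Every APC-deleted library was lower than every APC-intact library, and the change was -1.04 ± 0.07 (adjusted p = 2.49e-10). Sqstm1, whose protein can draw KEAP1 into autophagy, was higher by 0.16 ± 0.06 (adjusted p = 0.0398), a call that was lost without any 1 of the 3 APC-intact replicates or of APC-deleted replicates 2 and 3 (adjusted p up to 0.162).

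Nqo1, the quinone reductase often used as a readout of NRF2, was at 97.7, 102 and 96.7 CPM in APC-intact and at 257, 240.3 and 238 CPM in APC-deleted libraries. The groups lay far apart, and the rise was 1.31 ± 0.05 (adjusted p = 1.35e-13). Hmox1, the inducible haem oxygenase, was at 109, 111 and 107 against 104, 113 and 103 CPM. These groups overlapped, and the change of -0.03 ± 0.06 did not pass the test (adjusted p = 0.709). Blvrb and Cbr1, reductases of biliverdin and of carbonyls, were higher by 0.40 ± 0.13 and 0.26 ± 0.08 (adjusted p = 0.0284 and 0.0252). The Blvrb call was lost without APC-intact replicate 2 or 3 or APC-deleted replicate 2 or 3 (adjusted p up to 0.12), and the Cbr1 call without any APC-intact replicate or APC-deleted replicate 1 or 2 (up to 0.101). Ephx1 and Ugdh, which supplies UDP-glucuronate, did not pass the test.

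For glutathione synthesis the rate-limiting ligase has a catalytic and a modifier subunit. The modifier subunit gene Gclm was at 66.2, 67.0 and 67.2 CPM in APC-intact and at 104, 105 and 103 CPM in APC-deleted libraries. Replicates lay within a few CPM and the groups far apart, with a rise of 0.64 ± 0.05 (adjusted p = 3.64e-09). The catalytic subunit gene Gclc was at 28.5, 28.8 and 27.9 against 35.2, 36.3 and 32.2 CPM, also without overlap, and rose by 0.28 ± 0.06 (adjusted p = 0.00227). Slc7a11, the cystine importer that feeds the pathway, was at 64.1, 60.4 and 71.4 against 56.5, 60.9 and 51.0 CPM. Its groups overlapped and the change of -0.22 ± 0.13 did not pass the test (adjusted p = 0.232). Glutathione reductase Gsr was higher by 0.26 ± 0.06 (adjusted p = 0.00141), and glutathione synthetase Gss did not pass the test at 0.03 ± 0.07.

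The largest rise was in an enzyme that joins glutathione to electrophiles. Gsta4, which acts on the lipid peroxidation product 4-hydroxynonenal, was at 4.35, 5.20 and 4.30 CPM in APC-intact and at 32.4, 33.3 and 34.9 CPM in APC-deleted libraries. The rise was 2.86 ± 0.10 (adjusted p = 1.77e-14), the largest of the 34 in these libraries. Gstm1 was at 83.7, 87.1 and 74.7 against 153, 159 and 173 CPM and rose by 0.98 ± 0.07 (adjusted p = 2.43e-09). Mgst1 was at 0.339, 0.224 and 0.289 against 0.582, 0.654 and 0.621 CPM, 80 counts in all against 173. It rose by 1.12 ± 0.24 (adjusted p = 0.00159), with the wide error of a gene at this level. The exporters Abcc1 and Abcc4 were higher by 0.32 ± 0.06 and 0.36 ± 0.05, and the transferase Gsto1 by 0.20 ± 0.05. None of these 6 calls was lost when any 1 of the 6 untreated libraries was left out.

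In the thioredoxin system, Txnrd1, the reductase that recharges thioredoxin, was at 397, 379.9 and 391 CPM in APC-intact and at 502, 555 and 543 CPM in APC-deleted libraries. It rose by 0.45 ± 0.05 (adjusted p = 1.89e-06) without overlap. Txn1, Prdx1 and catalase Cat rose by 0.21 ± 0.06, 0.21 ± 0.07 and 0.17 ± 0.04. The Txn1 call was lost without APC-intact replicate 3 (adjusted p = 0.0508) and the Prdx1 call without APC-intact or APC-deleted replicate 3 (up to 0.0947). Srxn1, which repairs overoxidised peroxiredoxins, was at 70.8, 70.6 and 66.7 against 64.0, 64.1 and 64.3 CPM. It lay lower in every APC-deleted library, but the change of -0.11 ± 0.05 did not pass the test. Of the genes listed here under NADPH supply, Pgd rose by 0.32 ± 0.06 and Taldo1 by 0.23 ± 0.07. The Taldo1 call was lost without APC-intact replicate 2 or 3 or APC-deleted replicate 3 (adjusted p up to 0.0661). G6pdx, the entry enzyme of the pentose phosphate pathway, was lower (-0.15 ± 0.05, adjusted p = 0.0402), a call lost without any 1 of the 6 libraries (up to 0.15). Without each of them in turn Keap1 was thus the 1 gene called lower. Osgin1, a growth inhibitor induced by oxidative stress, was at 24.5, 23.8 and 21.02 against 38.0, 41.6 and 41.5 CPM and rose by 0.80 ± 0.08 (adjusted p = 1.32e-07). Of the ferritin chains Fth1 rose by 0.45 ± 0.09, and Ftl1, at 1159, 1126 and 1076 against 1096, 1183 and 1241 CPM, overlapped and did not pass the test (0.07 ± 0.06).

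**Figure D2:**
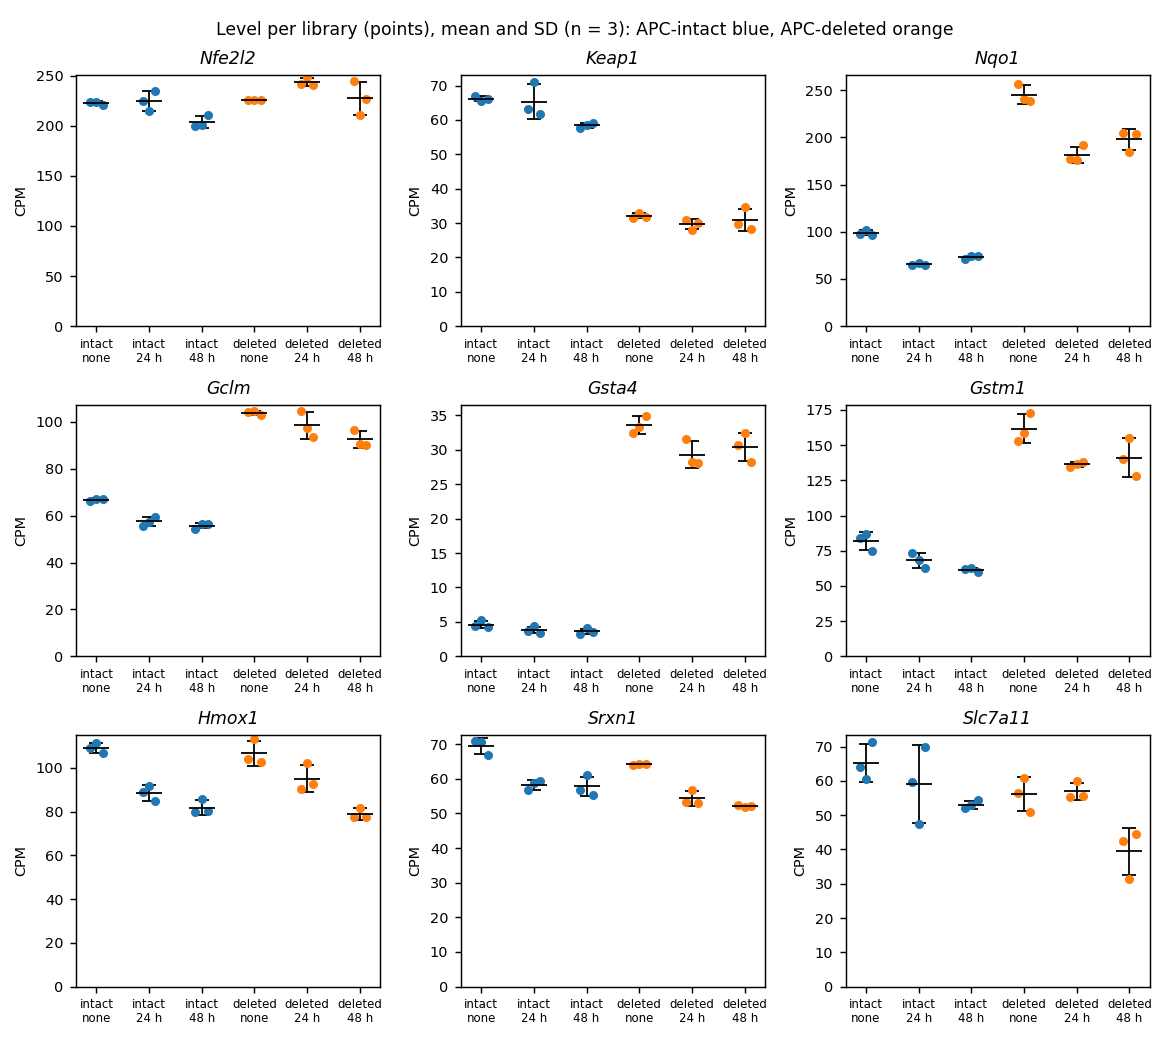
CPM of 9 genes in each library (points; APC-intact blue, APC-deleted orange) with the mean and SD of 3 libraries. Nqo1, Gclm, Gsta4 and Gstm1 stand higher and Keap1 lower in all 9 APC-deleted libraries, whereas the lines overlap for Hmox1 at each time and for Slc7a11 without doxycycline and at 24 h.

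The difference between the lines was present under doxycycline as well. At 24 h, 22 of the 34 genes were higher in the APC-deleted line, against 16.0% of all tested genes, and 1, Keap1, was lower, against 15.1%. At 48 h, 25 were higher, against 17.8%, and 3 (Keap1, Slc7a11 and Srxn1) were lower, against 16.8%. Without both libraries that stood apart 23 and 26 were higher and 1 and 2 lower. The shares of all genes in those fits are not given here, so these counts are description only. In all 3 comparisons of the lines 19 genes were higher, against 10.3% of all tested genes, among them Nqo1, Gclc, Gclm, Gsta4, Gstm1, Mgst1, Txnrd1, Fth1 and Osgin1, and Keap1 was the 1 gene lower, against 9.46%. Hmox1, Ephx1, Ugdh and Me1 passed the test in none. At 48 h the change was 1.44 ± 0.05 for Nqo1, 3.07 ± 0.10 for Gsta4, 0.73 ± 0.05 for Gclm and -0.92 ± 0.07 for Keap1, and each of these calls held without any 1 of the 6 libraries. Other calls depended on single libraries. At 24 h Cbr1 was lost without APC-intact replicate 1 or 3 or APC-deleted replicate 3 (adjusted p up to 0.0805), Prdx1 without APC-intact replicate 1 (0.0766) and Blvrb without APC-intact replicate 3 (0.0513). At 48 h Gss was lost in all such fits but that without APC-deleted replicate 1 (up to 0.118), Txn1 without APC-deleted replicate 1 or APC-intact replicate 1 or 3 (up to 0.127) and Ftl1 without APC-intact replicate 2 (0.0509). At that time Nfe2l2 was higher by 0.16 ± 0.05 (adjusted p = 0.02), but not without APC-deleted replicate 1 or APC-intact replicate 1 or 2 (up to 0.0994). Slc7a11 was lower (-0.43 ± 0.13, adjusted p = 0.0163), but not without APC-deleted replicate 2, which stood apart (0.0752). Srxn1 was lower (-0.15 ± 0.05, adjusted p = 0.0185), but not without APC-deleted replicate 3 or APC-intact replicate 2 (up to 0.14).

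**Figure D3:**
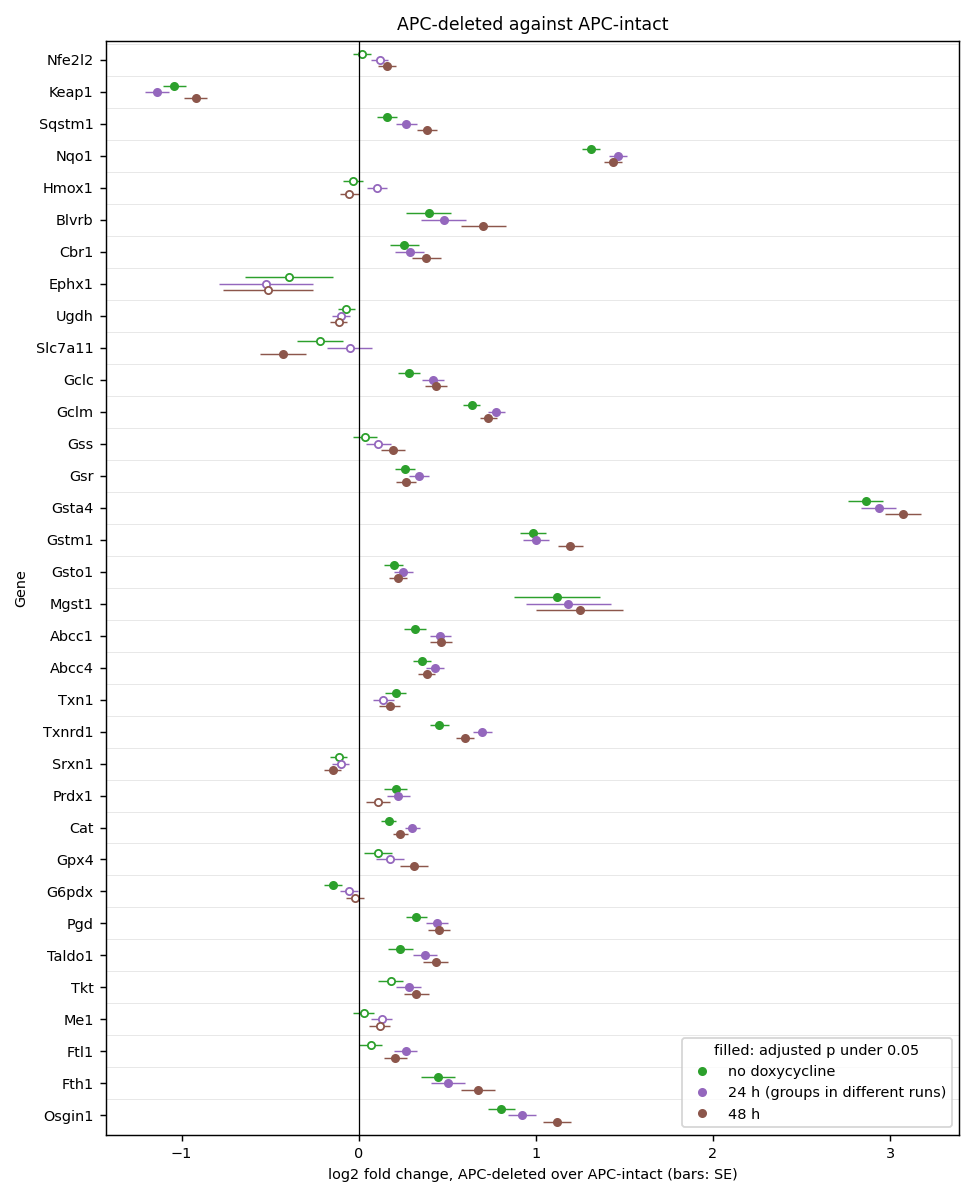
log2 fold change of APC-deleted over APC-intact cells with its SE for the 34 tested genes, without doxycycline, at 24 h and at 48 h; filled points have an adjusted p under 0.05. Gsta4 lies near 3, Nqo1, Gstm1, Mgst1 and Osgin1 lie mostly around 1, and Keap1 near -1 at each time.

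Keap1 was not alone at its locus. The gene lies on mm10 chromosome 9 from 21229730 to 21239332 on the minus strand, and the tested genes with a start within 100 kb of its own were examined after its value had been seen. It was part of an unbroken run of 7 neighbouring tested genes that were all lower in untreated APC-deleted cells. In genomic order the changes were -0.95 ± 0.08 for the phosphodiesterase gene Pde4a, -1.64 ± 0.39 for Gm16754, -1.04 ± 0.07 for Keap1, -1.15 ± 0.11 for the autophagy protease gene Atg4d, -1.22 ± 0.07 for Kri1, -1.05 ± 0.09 for the cell cycle inhibitor gene Cdkn2d and -0.49 ± 0.05 for Slc44a2. Cdc37, which lies before Pde4a, was not called without doxycycline (-0.10 ± 0.08) and was lower at 24 h (-0.21 ± 0.08, adjusted p = 0.0479). Pde4a fell from a mean of 41.4 ± 1.03 CPM to 21.4 ± 0.184, Kri1 from 34.1 ± 1.72 to 14.6 ± 0.737 and Keap1 from 66.1 ± 0.713 to 32.1 ± 0.803 (SD, n = 3). All 7 were also lower at 24 h and at 48 h, where Kri1 was at -1.16 ± 0.07 and -1.12 ± 0.07 and Atg4d at -1.22 ± 0.11 and -1.26 ± 0.11. Over the genome 9 runs of 5 or more neighbouring genes and 4 of 6 or more were lower in untreated APC-deleted cells, and 2 runs of 6 or more had every gene lower by over 0.8. Copy number was not measured, and what lowers these genes together was not tested. Gm16754 has a mean of 0.53 CPM in untreated APC-intact cells and overlaps Keap1 on the other strand. Since the use of strand in counting is not given, reads of the overlap cannot be told apart.

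**Figure D4:**
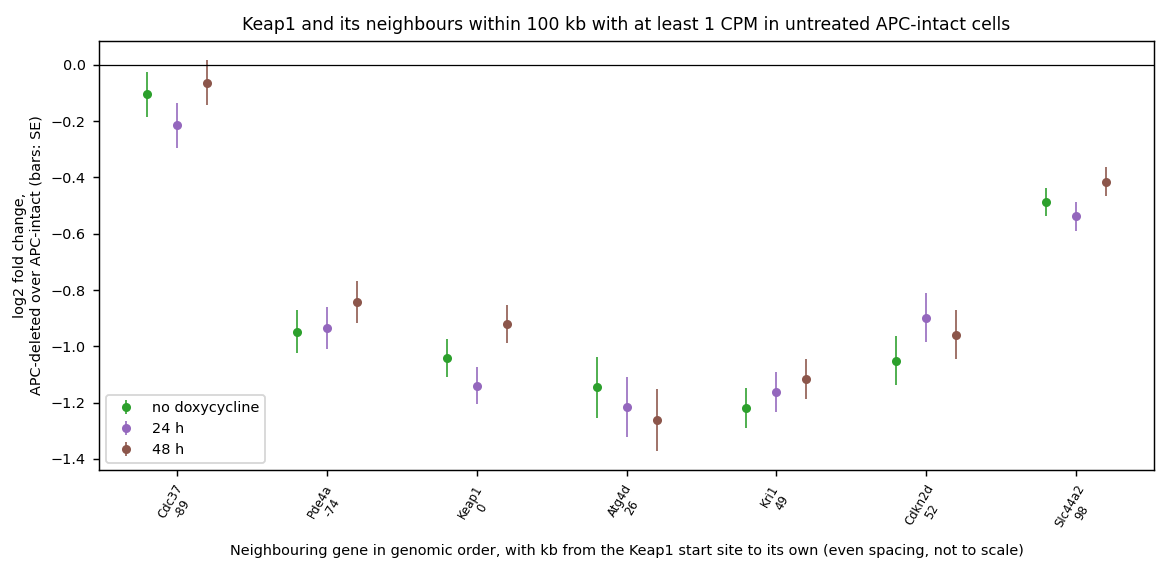
log2 fold change of APC-deleted over APC-intact cells (SE bars) for Keap1 and its neighbours within 100 kb with at least 1 CPM, in genomic order and with the distance of the start sites in kb; Gm16754 is under this level. Pde4a, Keap1, Atg4d, Kri1 and Cdkn2d lie near -1 and Slc44a2 near -0.5 at all 3 times, while Cdc37 lies between -0.21 and -0.06.

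After doxycycline, part of the genes fell in both lines, led in APC-intact cells by Nqo1, and none of the called falls reached the size of the Nqo1 difference between the lines. At 24 h in APC-intact cells, within 1 run, 10 of the 34 genes were lower, against 4.25% of all tested genes, and 1 was higher, against 1.39%. At 48 h, across the runs, 14 were lower, against 7.54%, and 0 higher, against 3.81%. For that 0 by edgeR's test, 1 gene rose at an unadjusted p under 0.05 and DESeq2 called 1. The median change of the 34 was -0.14 at 24 h and -0.18 at 48 h, and 30 and 32 of the estimates were below 0. At 24 h, 5 were lower and none higher without the APC-intact 24 h library that stood apart (replicate 1), and 11 were lower and 1 higher without both libraries that stood apart. All genes called at 24 h ran from 364 to 1259 in fits without 1 library, against 846 with all 18. The share of all genes in the fit without both is not given here. With only the groups compared in a fit, 2 were lower and none higher at 24 h, where 258 of all genes were called. At 48 h such a fit gave 24 lower and 1 higher, where 4367 of all genes were called.

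Among the called genes the fall at 24 h was largest in Nqo1. It was at 65.2, 67.2 and 65.1 CPM at 24 h and at 71.5, 73.9 and 74.0 CPM at 48 h in APC-intact cells. All 6 lay below the untreated libraries, with changes of -0.58 ± 0.05 (adjusted p = 1.43e-06) and -0.43 ± 0.05 (adjusted p = 9.21e-06). Osgin1 was at 18.7, 19.1 and 17.3 and then at 17.4, 17.4 and 16.6 CPM, and fell, with changes of -0.33 ± 0.08 and -0.43 ± 0.08. Hmox1 was at 89.0, 91.6 and 84.6 and then at 79.6, 85.7 and 80.2 CPM, below every untreated library. It fell, with changes of -0.30 ± 0.06 (adjusted p = 0.00199) and -0.42 ± 0.06 (adjusted p = 4.17e-05). Srxn1 was at 56.6, 58.9 and 59.3 and then at 56.9, 61.0 and 55.4 CPM, and fell, with changes of -0.25 ± 0.05 and -0.26 ± 0.05. All 6 treated libraries of Osgin1 and of Srxn1 lay below the untreated ones.

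The glutathione genes moved unevenly. Gclm was at 55.6, 57.4 and 59.6 CPM at 24 h and at 54.4, 56.4 and 56.4 CPM at 48 h, and fell, with changes of -0.22 ± 0.05 (adjusted p = 0.0108) and -0.26 ± 0.05 (adjusted p = 0.00145). Gclc was at 27.2, 23.6 and 29.3 and then at 27.7, 26.6 and 26.7 CPM. It did not pass the test at either time (-0.09 ± 0.06 and -0.07 ± 0.06). Slc7a11 was at 59.6, 47.3 and 70.0 CPM at 24 h, a wide spread, and at 52.0, 52.8 and 54.4 CPM at 48 h. Its changes of -0.15 ± 0.13 and -0.30 ± 0.13 did not pass the test. Gstm1 was at 73.3, 68.5 and 62.6 and then at 62.3, 62.4 and 60.1 CPM, and fell, with changes of -0.26 ± 0.07 and -0.41 ± 0.07. Gsta4 was at 3.74, 4.37 and 3.39 and then at 3.29, 4.07 and 3.47 CPM, and fell at 48 h alone, with a change of -0.35 ± 0.10 (adjusted p = 0.033). Mgst1, at 0.393, 0.270 and 0.311 and then at 0.226, 0.240 and 0.287 CPM, overlapped the untreated libraries. Txnrd1 was at 317, 325 and 354 and then at 348, 329.7 and 351 CPM, and fell, with changes of -0.23 ± 0.05 and -0.18 ± 0.05. Ftl1 was at 879, 1042 and 876 CPM at 24 h, a change of -0.27 ± 0.06 (adjusted p = 0.0172), and at 981, 977 and 991 CPM at 48 h, where it did not pass the test.

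Catalase Cat and Pgd also fell at both times, with changes of -0.25 ± 0.04 and -0.22 ± 0.06 at 24 h and of -0.22 ± 0.04 and -0.33 ± 0.06 at 48 h. With Nqo1, Hmox1, Gclm, Gstm1, Txnrd1, Srxn1 and Osgin1 they make 9 genes lower at both times, against 3.25% of all tested genes. The 5 others lower at 48 h were Sqstm1, Gsr, Gsta4, Gpx4 and Tkt. Of the regulators, Nfe2l2 and Keap1 did not pass the test at either time. Nfe2l2 was at 224, 215 and 235 and then at 199.6, 201 and 211 CPM (0.01 ± 0.05 and -0.13 ± 0.05), and Keap1 at 63.2, 71.0 and 61.8 and then at 57.7, 58.4 and 59.1 CPM (-0.02 ± 0.06 and -0.18 ± 0.06). At 48 h the libraries of both lay below the untreated ones without overlap. The exporter Abcc4 was the 1 gene that rose, at 42.5, 41.1 and 44.8 CPM against 38.0, 36.5 and 39.0, by 0.18 ± 0.05 (adjusted p = 0.0383).

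These calls varied in how far they depended on 1 library. In every fit that left out 1 of the 6 libraries, 4 of the 11 calls at 24 h were kept (Nqo1, Hmox1, Srxn1 and Cat), and 8 of 14 at 48 h (these 4 with Gclm, Pgd, Gstm1 and Osgin1). At 24 h the number lower was 4 without untreated replicate 1, 6 without untreated replicate 2, 5 without treated replicate 1 and 6 without treated replicate 3, and none was higher without any 1 of these 4 libraries. The Gclm and Txnrd1 calls at 24 h were lost without untreated or treated replicate 1 (adjusted p up to 0.0794 and 0.0869). Those of Ftl1, Osgin1 and Abcc4 were lost without untreated replicate 1 or 2 or treated replicate 1 or 3 (up to 0.136, 0.128 and 0.177). That of Gstm1 was lost without untreated replicate 1 or 2 or treated replicate 3 (0.208), and that of Pgd in all fits but the 1 without treated replicate 2 (0.277). At 48 h the number lower was 8 without untreated replicate 1 or without treated replicate 1 or 3. All genes called at 48 h ran from 822 to 1409 over the fits without 1 library, against 1703 in the main fit. Txnrd1 was lost in all fits but the 1 without untreated replicate 2 (0.117), Sqstm1 in all but that without untreated replicate 3 (0.102), and Gsta4 in all but those without untreated replicate 3 or treated replicate 2 (0.176). Tkt was lost without untreated replicate 1 or treated replicate 1 or 3 (0.0702), and Gsr and Gpx4 in every such fit (0.179 and 0.132).

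In APC-deleted cells the treated groups lie in the other run from the untreated one, so run and treatment cannot be told apart. At 24 h 3 of the 34 genes were lower, against 3.77% of all tested genes, and 1 was higher, against 2.08%. At 48 h 7 were lower, against 6.49%, and 1 higher, against 4.52%. At 24 h DESeq2 called 7 lower, with 1388 of all genes called. A fit of the compared groups alone called 9 lower and 5 higher at 24 h (2473 of all genes called). At 48 h such a fit called 3 lower and none higher (433 of all genes called). Without the APC-deleted 48 h library that stood apart, 10 were lower and 1 higher at 48 h. In fits without 1 library, all genes called at 48 h ran from 882 to 2816, against 1653 with all 18. The median change of the 34 was -0.08 at 24 h and -0.06 at 48 h.

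Nqo1 fell here too, to 177, 176 and 191 CPM at 24 h and to 205, 185 and 204 CPM at 48 h. Every treated library lay below the untreated ones and above every APC-intact library, and the changes were -0.43 ± 0.05 (adjusted p = 2.98e-05) and -0.31 ± 0.05 (adjusted p = 0.000518). Srxn1 went to 53.4, 56.7 and 52.9 and then to 52.3, 51.9 and 52.2 CPM, changes of -0.24 ± 0.05 and -0.30 ± 0.05. Nqo1 and Srxn1 were the 2 genes lower in all 4 comparisons of doxycycline with none, against 1.64% of all tested genes. Hmox1 was at 90.4, 102 and 92.5 CPM at 24 h, where it did not pass the test (-0.17 ± 0.06, adjusted p = 0.0834). At 48 h it was at 77.4, 81.8 and 77.5 CPM, a change of -0.43 ± 0.06 (adjusted p = 4.33e-05). Slc7a11 was at 55.2, 59.9 and 55.7 CPM at 24 h and at 42.4, 31.5 and 44.4 CPM at 48 h, with the lowest value in the library that stood apart. It fell at 48 h, with a change of -0.51 ± 0.13 (adjusted p = 0.018), though not without untreated replicate 2 (0.0626) nor without both libraries that stood apart (0.0505).

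Gclm was at 105, 97.3 and 93.5 and then at 96.6, 90.6 and 90.3 CPM, and fell at 48 h, with a change of -0.17 ± 0.05 (adjusted p = 0.03). Gclc, at 35.2, 35.5 and 36.4 and then at 35.5, 37.3 and 36.8 CPM, did not pass the test (0.05 ± 0.06 and 0.08 ± 0.06). Gstm1 was at 134, 137 and 138 and then at 140.2, 155 and 128 CPM, and fell at 24 h, with a change of -0.25 ± 0.07 (adjusted p = 0.0491). Gsta4 (31.5, 28.2 and 28.1, then 30.7, 32.4 and 28.3 CPM) and Mgst1 (0.642, 0.682 and 0.889, then 0.469, 0.635 and 0.687 CPM) did not pass the test. Nor did Txnrd1, at 536, 535 and 542 and then at 524, 491 and 544 CPM, or Osgin1, at 32.7, 32.8 and 38.9 and then at 35.7, 41.0 and 35.1 CPM. Ftl1 was at 1168, 1047 and 1147 and then at 1105, 1151 and 1145 CPM, overlapping the untreated libraries. Nfe2l2 (242, 248 and 240.2, then 244, 211 and 226 CPM) and Keap1 (30.9, 28.1 and 30.0, then 29.8, 34.6 and 28.2 CPM) did not pass the test either. Cat and Pgd fell at 48 h, with changes of -0.15 ± 0.04 and -0.20 ± 0.06, and Abcc4 rose by 0.25 ± 0.05 at 24 h and 0.17 ± 0.05 at 48 h.

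Of these calls Nqo1, Srxn1 and Abcc4 at 24 h and Nqo1, Hmox1 and Srxn1 at 48 h were kept in every fit that left out 1 library. The Gstm1 call at 24 h was lost in each such fit (adjusted p up to 0.207). At 48 h the number lower was 3 without untreated replicate 2 and 4 without treated replicate 3. There the Gclm call was lost without any untreated replicate or treated replicate 3 (up to 0.111), and Pgd in all fits but the 1 without treated replicate 2 (0.159). Cat was lost without untreated replicate 2 or treated replicate 3 (0.0961), and Abcc4 without untreated replicate 2 or 3 or treated replicate 1 or 3 (0.138), so that none was then higher.

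Between 24 h and 48 h in APC-deleted cells, within 1 run, 1 of the 34 genes was lower, against 0.446% of all tested genes, and 0 were higher, against 0.0733%. For that 0 by edgeR's test, 1 gene rose at an unadjusted p under 0.05 and DESeq2 called 0. The 1 gene was Hmox1, which fell, with a change of -0.27 ± 0.06 (adjusted p = 0.0245), and the call was lost without 24 h replicate 2 or 3 or 48 h replicate 1 or 3 (up to 0.257), leaving 0 lower. Slc7a11 was at -0.53 ± 0.13 without passing the test (adjusted p = 0.1). Without both libraries that stood apart 2 genes were lower (221 of all genes called), as with DESeq2 (191 of all). In a fit of the compared groups alone none was lower (22 of all).

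**Figure D5:**
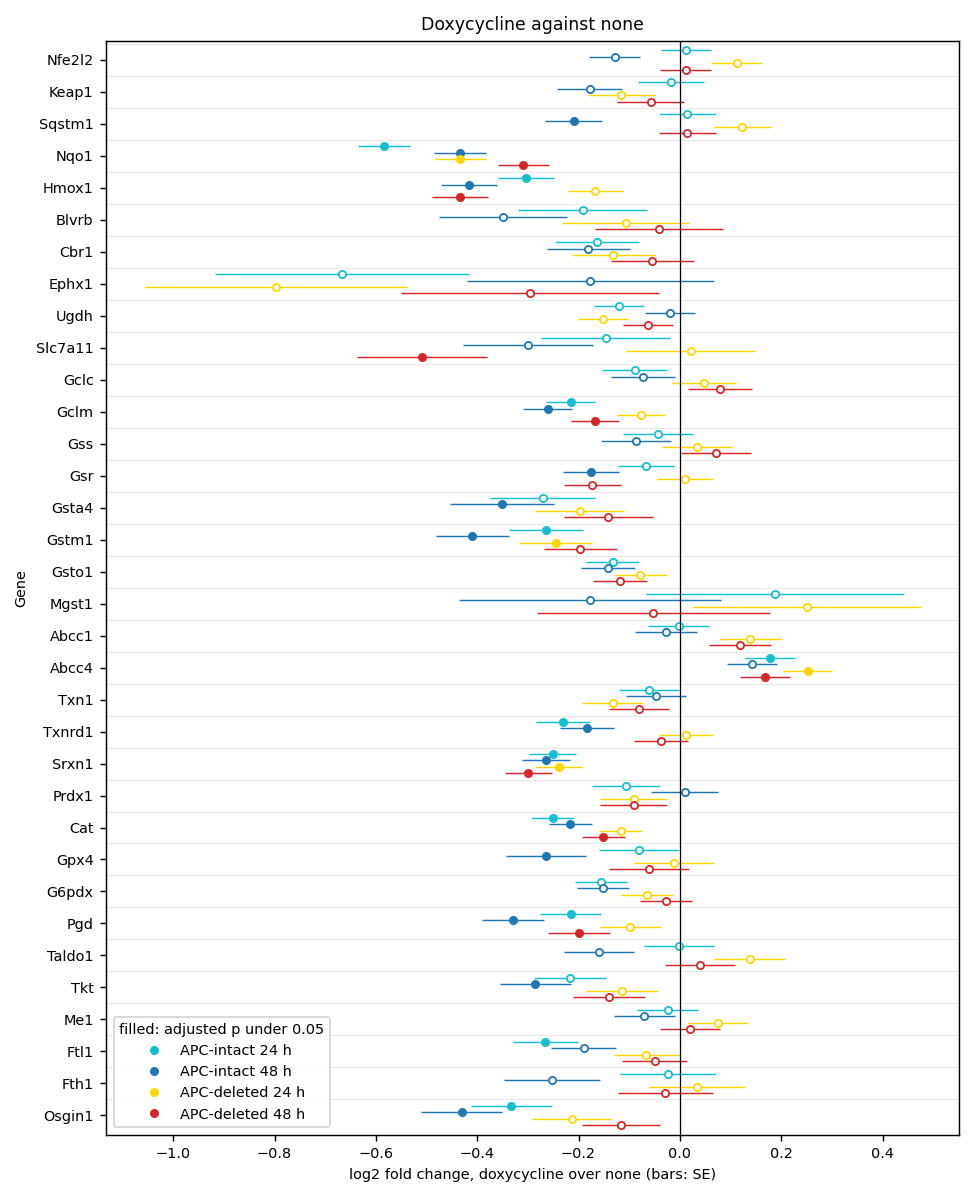
log2 fold change of doxycycline over none with its SE for the 34 tested genes, in both lines at 24 and 48 h; filled points have an adjusted p under 0.05. Nqo1 and Srxn1 are filled to the left of 0 in all 4 comparisons, Abcc4 is filled to the right in 3, and most other APC-intact points lie left of 0.

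Whether the lines responded differently at 48 h was tested as a difference of differences, in which the runs cancel. None of the 34 genes passed, with 0 higher against 0.0200% of all tested genes and 0 lower against 0.00666%. By edgeR's test 3 were higher and 0 lower at an unadjusted p under 0.05, and DESeq2 called 0 in both directions. The 3 were Osgin1 (0.31 ± 0.11, adjusted p = 0.534), Sqstm1 (0.22 ± 0.08, adjusted p = 0.544) and Gstm1 (0.21 ± 0.10, adjusted p = 0.714). For Osgin1 and Gstm1 the estimate was a smaller decrease in APC-deleted cells. The mean of Sqstm1 did not decrease in APC-deleted cells, at 1418 CPM untreated and 1432 CPM at 48 h. For Keap1 the difference was 0.12 ± 0.09 and for Hmox1 -0.02 ± 0.08 (95% interval from -0.18 to 0.14). For Osgin1 the interval ran from 0.08 to 0.55. A p that misses the threshold does not show that the lines respond alike.

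Over the 4 comparisons of doxycycline with none, which share untreated libraries, 16 of the 34 genes were lower in at least 1, against 11.7% of all tested genes. Abcc4 was the 1 gene higher in at least 1, against 7.68%, and 17 were called in none, against 80.8%, with Nfe2l2, Keap1 and Gclc among them.

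Other genes of the pathway, on lists that leave out the 36, are to be set against the 13.4% of all tested genes higher and 13.8% lower between the untreated lines. Of 17 tested regulators and partners of NRF2, 2 were higher and 2 lower in untreated APC-deleted cells, near those shares, at a median of 0.01. Bach2, which encodes a repressor of the BACH family, rose by 2.80 ± 0.31 from a mean of 0.275 ± 0.0985 to 1.93 ± 0.272 CPM (SD, n = 3). Btrc, which encodes a ubiquitin ligase subunit, rose by 0.20 ± 0.05, and Dpp3, whose protein can bind KEAP1, was lower (-0.21 ± 0.06.) Of 26 other glutathione and transferase genes 5 were higher and 6 lower, at a median of 0.01. Ggt1, which breaks down extracellular glutathione, had 666 counts in the 3 untreated APC-intact libraries and 4 in the 3 APC-deleted ones. The transferase Gstt2 was lower (-2.06 ± 0.16), and the transferase family member Mgst2 was higher by 0.47 ± 0.05. After doxycycline 2 of these 26 were lower at 24 h and 4 at 48 h in the APC-intact line, where 4.25% and 7.54% of all genes were, with Glrx, a glutaredoxin, at -0.25 ± 0.05 and -0.40 ± 0.05. In APC-deleted cells Glrx was also lower at 48 h (-0.27 ± 0.05).

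Of 19 other thioredoxin, peroxide and superoxide genes 7 were higher and 4 lower in untreated APC-deleted cells. Txnip, an inhibitor of thioredoxin, rose by 1.16 ± 0.12 and the peroxiredoxin Prdx4 of the endoplasmic reticulum by 0.68 ± 0.06. Sod3, the secreted superoxide dismutase, was lower (-4.66 ± 0.20), from a mean of 11.4 ± 0.544 to 0.447 ± 0.0415 CPM. Txnip fell with doxycycline in APC-intact cells, with changes of -0.57 ± 0.12 at 24 h and -0.77 ± 0.12 at 48 h. It also fell in APC-deleted cells at 24 h, with a change of -0.43 ± 0.11. Of 32 other genes of detoxification, NADPH and iron 6 were higher and 7 lower in untreated APC-deleted cells. Pir, an NRF2-linked iron-binding gene on chromosome X, rose by 1.13 ± 0.06, but it stands at the end of a run of 20 neighbouring tested genes that were all higher. Cbr3, which lies next to Cbr1 and encodes a related reductase, had 801 counts in the 3 untreated APC-intact libraries and 0 in the 3 APC-deleted ones, at least 267-fold lower against a floor of 3 counts over the group. Cbr1 itself was higher, as given above. The haem transporter gene Slc48a1 fell, with a change of -0.35 ± 0.05 at 24 h and -0.39 ± 0.05 at 48 h in the APC-intact line.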

How the data were processed

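For each of the 18 libraries the authors gave raw counts by gene in the deposited tables. STAR, HTSeq and the mm10 build are named in the submitters' processing notes. Versions, strandedness and annotation release are not given in the sources used here. The deposited RPKM column was not used here. Entries that name no gene (22.9 to 25.5% of each total) entered neither library sizes nor tests. The test was edgeR 4.0.16 under R 4.3.3 (TMM scaling, filterByExpr by group, 1 coefficient per group over all 18 libraries, robust glmQLFit, glmQLFTest), with p-values adjusted by Benjamini and Hochberg over 15006 genes at 0.05. The common biological coefficient of variation was 8.33%. The steps were tested on simulated data. No replicate pair agreed within sampling noise. Reads carry no molecular identifiers, so floors (3 counts) cover counting error only.

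The genes, lists and tests were chosen with earlier results of these data known. Values in every library are given for Nfe2l2, Keap1, Nqo1, Hmox1, Gclc, Gclm, Slc7a11 and Txnrd1 and for genes among the 6 largest called changes between untreated lines or at 24 h in APC-intact cells; up to 3 genes per other list and comparison could be named. Alternatives were DESeq2 1.42.0, DESeq-style factors, no filter, a replicate block, only the groups compared, and leaving out libraries. Coordinates are those of the files; 22 of the 36 genes lie at the identical place in GENCODE M21. As strand use is not given, 8 genes that overlap another gene are uncertain (Keap1, Sqstm1, Gclm, Gss, Gsr, Gsto1, Gpx2 and G6pdx). Figures used Python 3.11.15 with matplotlib 3.10.9.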

Additional observations from a re-analysis of the deposited data

How the results depend on the processing

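No gene value that was checked changed sign under any alternative. The check covered the listed genes where they were called in the main fit. Between the untreated lines it also covered Nfe2l2, Keap1, Nqo1, Hmox1, Gclc, Gclm, Slc7a11 and Txnrd1. Other estimates that did not pass the test, and genes of the other lists, were not checked. Of the gene values called, 33 outside the fits that leave out a single library and 125 within them no longer passed the threshold.

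Where a fit held only the 2 or 4 groups of a comparison, fewer libraries gave the spread. The genes of the list higher and lower were then 0 and 2 at 24 h in APC-intact cells (258 of all genes called), 1 and 24 at 48 h (4367), 5 and 9 at 24 h in APC-deleted cells (2473), 0 and 3 at 48 h (433), 0 lower between 24 and 48 h (22), and 0 of all genes for the difference of responses. DESeq2 called 1 higher at 48 h in APC-intact cells, 7 lower (1388 of all genes) at 24 h in APC-deleted cells, 2 lower (191) between 24 and 48 h, and 57 of all genes for the difference. With no filter on low counts 1 was lower between the untreated lines and at 48 h, 0 were higher at 24 h in APC-intact and at 48 h in APC-deleted cells, and 14 of all genes were called for the difference. Without both libraries that stood apart, all genes called were 3009 at 48 h in APC-deleted cells, 221 between 24 and 48 h (2 of the list lower), and 2 for the difference. The causes of these other shifts were not tested. The longer motif with a further A was found in 2 genes of the list in place of 11. That is 6.45% of the genes of the list with a window, against 3.45% of all genes.

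Leaving out 1 library at a time, the list had 15 to 20 higher and 1 lower between the untreated lines (3101 to 3579 of all genes called), 20 to 25 higher and 1 lower at 24 h (3608 to 4631), and 22 to 26 higher and 2 to 4 lower at 48 h (4231 to 5219). In APC-intact cells it had 0 to 1 higher and 4 to 14 lower at 24 h (364 to 1259), and 0 higher and 8 to 11 lower at 48 h (822 to 1409). In APC-deleted cells it had 1 higher and 2 to 3 lower at 24 h (428 to 533), 0 to 1 higher and 3 to 10 lower at 48 h (882 to 2816), and 0 to 1 lower between the times (47 to 193). For the difference 0 to 3 of all genes were called. A group left with 2 libraries is assumed to vary like the others.

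Of 45 same-number pairs of libraries 4 had a correlation of deviations over 0.1 (range -0.0884 to 0.237, median 0.0203 against -0.0156 for other numbers), so the numbers were not taken to pair the libraries. As a hint from the data, not the design, 12 of 18 libraries correlated best with their own number. With the replicate block 22 genes of the list were higher and 2 lower between the untreated lines, 10 were lower at 24 h and 15 after 48 h in APC-intact cells, and 4 at 24 h and 7 at 48 h in APC-deleted cells. The share of all genes called with the block is not given here, so these counts are description only. Ephx1, Mgst1, Gstp1, Gpx2 and Tdo2 had few or no counts, which limits what can be said of them.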
